A study of Mus musculus with 11 samples.

Results

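The 10 integrin subunit genes described here were followed across the mesenchymal cells of the mouse liver: 4 beta subunits (Itgb1, Itgb3, Itgb5 and Itgb8) and 6 alpha subunits (Itgav, Itga1, Itga5, Itga8, Itga9 and Itga11). They were chosen by symbol, from 26 integrin genes listed among the 27998 genes of the 10X tables, and all 10 had counts. The cells came from Pdgfrb-BAC-eGFP mice, males of 10 to 16 weeks with a C57BL/6 background, and were sorted as GFP+ and negative for CD45 and CD102, surface markers of leucocytes and endothelial cells. Every group therefore carried the same reporter, driven by the regulatory region of Pdgfrb, the gene of a growth factor receptor of mesenchymal cells. Uninjured mice were compared with mice given carbon tetrachloride (CCl4), a hepatotoxin injected intraperitoneally in olive oil, and with mice 14 days after bile duct ligation (BDL). CCl4 was given once, with harvest at 72 h, or repeatedly for 6 weeks, with harvest 48 h after the final injection.

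There were 5 droplet libraries (10X Chromium), each pooled from 3 mice. They held uninjured and 6-week CCl4 cells freed by digestion protocol 1 (minced liver, PF in the labels). The others were uninjured, 72 h and 6-week cells freed by protocol 2 (perfused liver, HSC in the labels). Protocol 2 also isolated stellate cells on a Histodenz density gradient before sorting. Gating strategies, like digestion protocols, were not the same for all cells in the study. The 6 plates of Smart-seq2, a full-length method, held wells of 2 or 3 mice each, and the wells of 1 mouse on a plate are called a portion below. Cells were classed by clustering without any integrin gene. Clusters were named hepatic stellate cell-like (HSC-like) from Vipr1, Colec11, Pth1r, Ecm1 and Hgf, fibroblast-like (FB-like) from Clec3b, Dpt, Entpd2, Fbln2, Col15a1 and Gpx3, and vascular smooth muscle cell-like (VSMC-like) from Tagln, Acta2, Tpm2, Pln and Myh11. The VSMC-like class was broad. In 10X only its cluster led by Cnn1 had any of those 5 among its 10 leading genes. In Smart-seq2 only a cluster of 249 of its 913 wells, led by Rasd1, did. Higd1b, a gene known from pericytes, was among the leading genes of 2 of the 4 10X clusters. These held 539 of the 1666 uninjured and 1650 of the 3003 injured cells. In Smart-seq2 it was among those of a cluster of 169 wells. No list of pericyte markers was fixed, so these cells were not separated. In 10X, 4027 uninjured and 2622 injured FB-like cells and 1666 uninjured and 3003 injured VSMC-like cells were compared from protocol 1, with 6850 uninjured, 7295 72-h and 5450 6-week HSC-like cells from protocol 2. The stellate markers summed to 24588 counts-per-million units (CPM) in uninjured HSC-like cells, against 666 CPM in FB-like cells and 458 CPM among VSMC-like ones. Cell type and digestion protocol cannot be told apart in the 10X data. The libraries held from 25965670 to 86664085 unique molecular identifiers (UMIs), and any 2 of them shared 33 to 74 cell barcodes (0.605% to 1.31%).

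Integrins are heterodimers of an alpha and a beta subunit that span the cell membrane and couple the extracellular matrix to the actin cytoskeleton. Dimers of the Itgav product with several beta subunits bind matrix proteins and can release active TGF-beta from its latent complex, a step well known in liver fibrosis. Itgb1 pairs with many alpha subunits, among them the collagen receptors Itga1 and Itga11, the fibronectin receptor Itga5, the nephronectin receptor Itga8 and the tenascin-C receptor Itga9. Hepatic stellate cells, which store retinoids in the quiescent liver, are the best known source of fibrillar collagen after hepatocyte injury.

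The genes lie on 8 chromosomes, with Itgav and Itga8 both on chromosome 2 and Itga9 and Itga11 both on chromosome 9 (GENCODE annotation of mm10). Itgb1 spans chr8:128685654-128733200 on the plus strand, Itgb3 spans chr11:104608000-104670476 on the plus strand, Itgb5 spans chr16:33829665-33949338 on the plus strand and Itga8 spans chr2:12106632-12301922 on the minus strand. The others are Itgav (chr2:83724397-83806916, plus strand), Itgb8 (chr12:119158022-119238802, minus), Itga1 (chr13:114953096-115101964, minus), Itga5 (chr15:103344286-103366763, minus), Itga9 (chr9:118606690-118901003, plus) and Itga11 (chr9:62677826-62783982, plus). The 250 bases before the annotated start were read from the RefSeq promoter table of GRCm38.p6, which matched 9 of the 10 genes. The stretches of 3 genes are shown because their genes differed in their 10X direction after injury, namely Itgb1, Itgb5 and Itga8. Capitals mark matches, on either strand, to a GC box (GGGCGG), a TEAD motif (GGAATG) or a SMAD motif (CAGACA). An AP-1 motif (TGANTCA) was searched too.
Itgb1: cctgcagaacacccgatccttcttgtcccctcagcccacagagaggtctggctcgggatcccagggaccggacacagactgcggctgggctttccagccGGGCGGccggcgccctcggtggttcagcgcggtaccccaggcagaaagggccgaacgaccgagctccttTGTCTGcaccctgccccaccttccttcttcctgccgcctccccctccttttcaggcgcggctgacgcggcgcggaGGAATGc
Itgb5: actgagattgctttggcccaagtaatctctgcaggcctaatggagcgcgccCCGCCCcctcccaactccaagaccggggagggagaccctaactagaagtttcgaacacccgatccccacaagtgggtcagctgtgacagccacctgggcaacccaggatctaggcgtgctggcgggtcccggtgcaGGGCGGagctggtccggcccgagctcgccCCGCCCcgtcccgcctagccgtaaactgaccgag
Itga8: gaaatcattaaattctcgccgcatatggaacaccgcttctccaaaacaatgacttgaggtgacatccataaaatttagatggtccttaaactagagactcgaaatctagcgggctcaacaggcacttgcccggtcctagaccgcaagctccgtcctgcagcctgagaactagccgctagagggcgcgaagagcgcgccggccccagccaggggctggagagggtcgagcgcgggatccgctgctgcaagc
The Itgb1 stretch lies at chr8:128685404-128685653 (plus strand), the Itgb5 stretch at chr16:33829415-33829664 (plus strand) and the Itga8 stretch at chr2:12301945-12302194 (minus strand). Itgb1 held 1 GC box, 1 TEAD and 1 SMAD match, none of them overlapping. Itgb5 held 3 GC boxes, and the Itga8 stretch held no match to any of these letters. A GC box was present in 3 of the 9 stretches, against 32.7% of 32851 promoters. The other motifs were as common as 6.75% (AP-1), 12.6% (TEAD) and 17.1% (SMAD) of all promoters. The GC content of the 9 stretches ran from 55.6% to 68.4%, against a median of 52.4% over all promoters. The RefSeq starts used for Itga9, Itgb8 and Itga11 lie inside those genes as GENCODE draws them.

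In the uninjured liver by 10X, HSC-like cells were highest in Itgb1, Itgb3, Itga1 and Itga9, FB-like cells were highest in Itga11, and Itga8 was high in both VSMC-like and HSC-like cells. The Smart-seq2 portions differed from this for Itgb1, at 1551 RPM (reads-per-million) in HSC-like and 1523 RPM in VSMC-like wells, and Itga8 was called between no 2 types there. With 1 pooled library per group the 10X values have no replicate check, so the intervals given are exact Poisson 95% intervals and cover counting error only.

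Itgb1, the common partner subunit, was at 729 CPM in uninjured HSC-like cells (721.5 to 737). VSMC-like cells held 378 CPM (362 to 394) and FB-like cells 161 CPM (156 to 167). Itgb3, whose product pairs with that of Itgav and, in platelets, with that of Itga2b, was at 88.9 CPM in HSC-like cells (86.2 to 91.7). FB-like cells held 5.23 CPM of Itgb3 (4.28 to 6.33) and VSMC-like cells 2.79 CPM (1.59 to 4.53). The level of Itgb3 in HSC-like cells was thus 17.0 times that in FB-like cells (14.0 to 20.8) and 31.9 times that in VSMC-like cells (19.6 to 55.9). Itgb5, another partner of Itgav, had another order, from 246 CPM in fibroblast-like through 214 CPM in stellate-like to 99.1 CPM in muscle-like cells. Itgb8, best known for activating TGF-beta with Itgav, stayed between 3.83 and 7.27 CPM in the 3 types.

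Among the alpha subunits, Itga1 and Itga11 differed most between HSC-like and FB-like cells, in opposite directions. Itga1 was at 158 CPM (154 to 162) against 4.48 CPM (3.61 to 5.51), a ratio of 35.2 (28.6 to 43.9), with VSMC-like cells at 41.5 CPM. The FB-like over HSC-like ratio of Itga11 was 31.4. Itga9 was at 151 CPM in HSC-like cells, while FB-like cells had 17.0 CPM and VSMC-like cells 14.1 CPM. Itga11, also a collagen receptor, was the reverse of Itga1 and ran from 29.1 CPM in FB-like cells through 6.45 CPM in VSMC-like cells to 0.927 CPM in HSC-like cells. The 2 collagen-binding alpha subunits therefore divided the stellate-like from the fibroblast-like cells. VSMC-like cells held 107 CPM of Itga8 and HSC-like cells 93.0 CPM, with intervals apart (98.5 to 116 and 90.3 to 95.9), and FB-like cells 19.5 CPM. Itgav varied least of the alpha subunits, between 35.5 and 61.5 CPM, and Itga5 between 5.92 CPM (VSMC-like) and 19.2 CPM (FB-like).

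**Figure D1:**
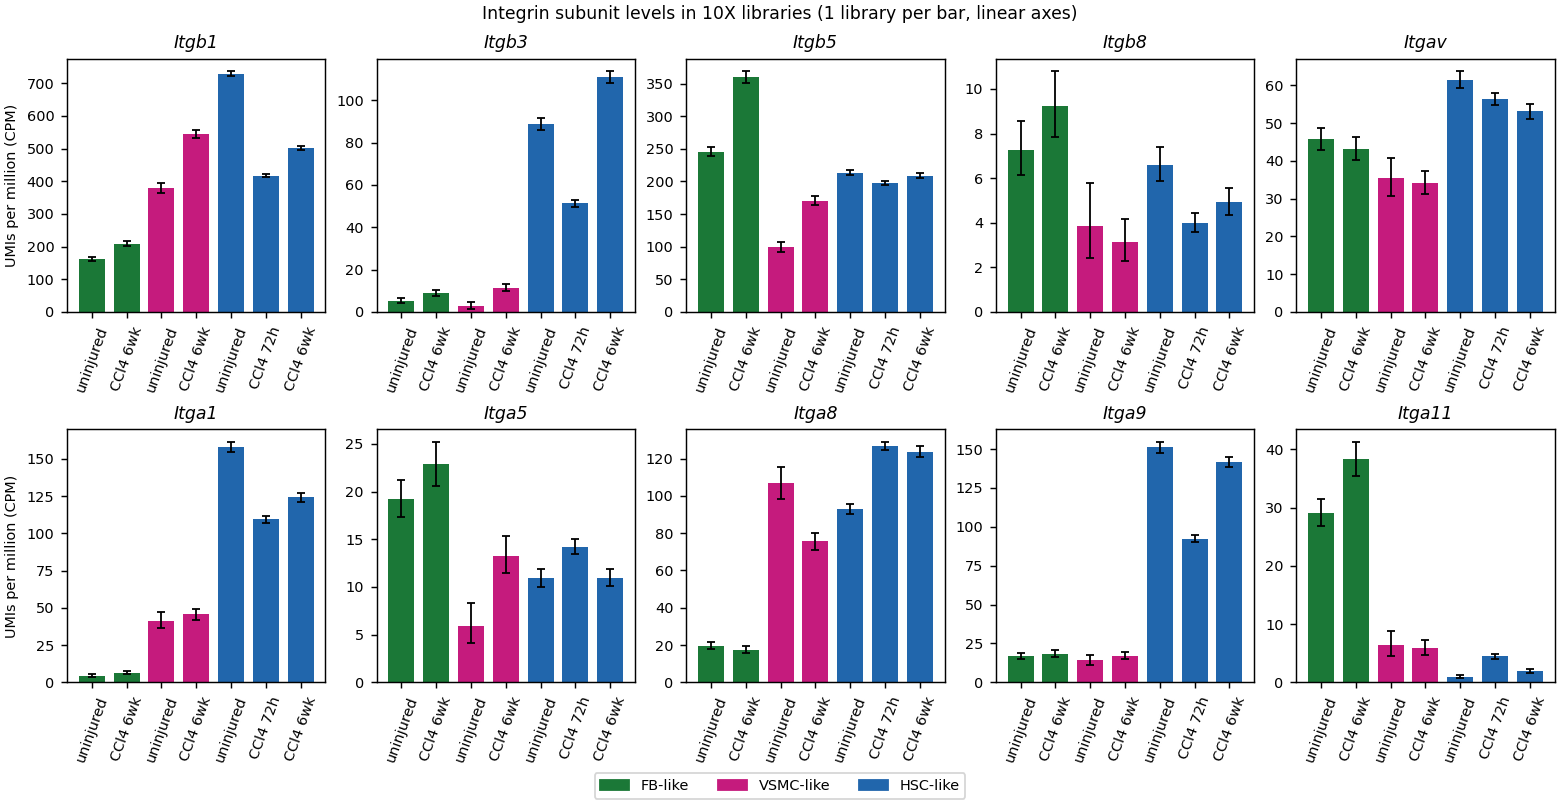
Level of each of the 10 subunits in 10X (CPM, linear axes), with 1 bar per library and cell type and error bars for the exact Poisson 95% interval. Itgb3, Itga1 and Itga9 stand highest in the HSC-like libraries and Itga11 in the FB-like libraries.

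Smart-seq2 gave replicates for the same question, as RPM in each portion. Uninjured FB-like and VSMC-like wells came from 6 portions on 6 plates. Uninjured HSC-like wells came from 2 portions, both on plate 6 and both without any FB-like or VSMC-like well. The label of plate 6 names 1 mouse of protocol 1 and 2 mice of protocol 2, without saying which portion is which, and all other plates used protocol 1. The differences of HSC-like wells from the other types therefore cannot be told apart from differences between mice or digestion protocols. Plate was mostly inseparable too, since only 1 portion with the other types (18 FB-like and 34 VSMC-like wells) was on plate 6. The study's methods count fewer uninjured livers for Smart-seq2 than there are uninjured portions, so some portions may share a mouse, and the p-values would then be too small. Counts were summed per portion and type and tested with edgeR across all genes, with the portion as a block between FB-like and VSMC-like wells.

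Between FB-like and VSMC-like wells, 5 of the 10 subunits passed an adjusted p of 0.05, 2 of them higher and 3 lower in FB-like wells. Over all 12036 genes tested, 9.63% were higher and 8.77% lower. Itga1 ran from 24.4 RPM through a median of 44.6 RPM to 68.2 RPM in FB-like portions and from 240 through 311 to 368 RPM in VSMC-like portions. The portions of the 2 types did not overlap, and the log2 difference was -2.68 ± 0.21 (SE; edgeR adjusted p = 7.19e-05). Itgb1 ran from 532 through 672 to 799 RPM in FB-like and from 1294 through 1444 to 1851 RPM in VSMC-like portions. Itgb1 did not overlap either, at -1.12 ± 0.17 on the log2 scale (adjusted p = 0.00246). Itga11 ran from 51.3 through 77.7 to 134 RPM in FB-like portions and from 0.0794 through 4.23 to 10.2 RPM in VSMC-like portions. It was higher in all 6 FB-like portions, by 4.67 ± 0.69 on the log2 scale (adjusted p = 0.00177). Itgb5 ran from 189 through 253 to 371 RPM in FB-like and from 87.8 through 120 to 177 RPM in VSMC-like portions. All 6 FB-like portions lay above the VSMC-like range for Itgb5, by 1.14 ± 0.25 on the log2 scale (adjusted p = 0.0138).

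Itgb3 was close to the floor in FB-like wells, with no read in 4 of 6 portions and 0.0454 and 4.58 RPM in the others, and ran from 0.825 through 9.39 to 23.1 RPM in VSMC-like portions. It passed (adjusted p = 0.0422), but the fitted log2 difference of -8.05 rests on those zeros. The adjusted p of Itgb3 was 0.195 without the portion block, 0.214 with wells classed by their highest marker level, and between 0.0923 and 0.124 when plate 1, 2, 3, 5 or 6 was left out. Itga8 ran from 95.1 through 244 to 387 RPM in FB-like and from 244 through 369.8 to 506 RPM in VSMC-like portions, and did not pass (log2 difference -0.65, adjusted p = 0.12), except without plate 5 (adjusted p = 0.0429). Itgav, Itga5, Itga9 and Itgb8 did not pass, with log2 differences between 0.16 and 0.73.

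Against FB-like wells, HSC-like wells were higher in Itga1, Itga9, Itgb3 and Itgb1 and lower in Itga11. The 2 HSC-like portions held 884 and 859.7 RPM of Itga1, and 296 and 315 RPM of Itga9. FB-like portions held 39.6 to 105 RPM of Itga9, and the log2 differences were 4.36 ± 0.28 for Itga1 (edgeR adjusted p = 1.72e-07) and 2.34 ± 0.43 for Itga9 (adjusted p = 0.00273). Itgb3 was at 243 and 212 RPM in HSC-like portions, against 0 to 4.58 RPM in FB-like portions (adjusted p = 0.00692), and Itgb1 at 1520 and 1581 RPM (log2 difference 1.40 ± 0.20, adjusted p = 3.3e-04). With wells classed by their highest marker level, Itgb1 and Itga9 no longer passed (adjusted p = 0.175 and 0.239). Itga11 was at 1.86 and 3.85 RPM, a log2 difference of -4.75 ± 1.18 (adjusted p = 0.0207), but its adjusted p was 0.26 and 0.143 when either HSC-like portion was left out. These 5 of 10, 4 higher and 1 lower, compare with 2.87% higher and 4.19% lower among 14834 genes. Itgb5, at 114 and 115 RPM in HSC-like portions, missed the threshold in edgeR (log2 difference -1.04, adjusted p = 0.0773) and passed in DESeq2 (adjusted p = 0.00691), which gave Itgb3 no adjusted p in the comparisons with HSC-like wells.

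Against VSMC-like wells, 2 of the 10 subunits were higher in HSC-like wells, where 6.63% of all genes were higher and 6.46% lower. They were Itga1, by 1.76 ± 0.29 on the log2 scale (edgeR adjusted p = 5.02e-04), and Itga9, by 2.44 ± 0.43 (adjusted p = 0.00102). Neither passed with wells classed by their highest marker level (adjusted p = 0.427 and 0.188). Itgb1 and Itga8 did not pass, at log2 differences of 0.30 ± 0.21 (adjusted p = 0.451) and 0.0038 ± 0.42 (adjusted p = 1). The VSMC-like portions of Itga9 reached 96.6 RPM, below both HSC-like portions. Itgb3 missed the threshold (adjusted p = 0.0553), although its 2 HSC-like portions lay above the highest VSMC-like portion of 23.1 RPM. It passed without plate 4 (adjusted p = 0.00225), without the plate 6 mouse that gave FB-like and VSMC-like wells (adjusted p = 0.0423) and with no filter on low counts (adjusted p = 0.0364).

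**Figure D2:**
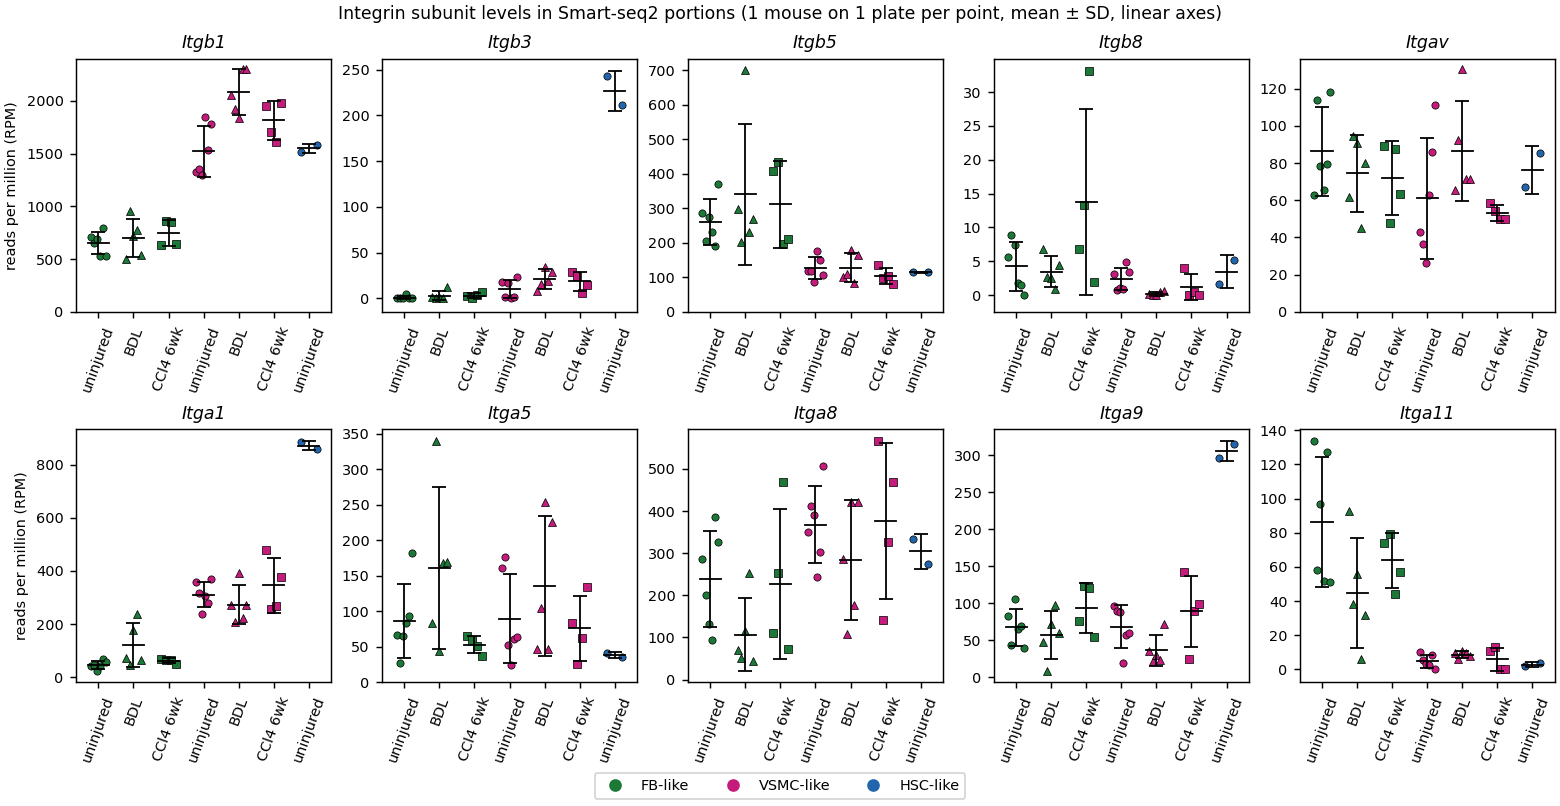
Smart-seq2 level of the subunits in every portion (RPM, linear axes), by cell type and condition. Each point is 1 portion, and the line and error bar are the mean and SD of its group. The uninjured FB-like and VSMC-like portions separate for Itga1, Itgb1, Itga11 and Itgb5, and both HSC-like portions lie above them for Itga1 and Itga9.

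Levels of different genes were compared only in Smart-seq2, per length, as RPKM (RPM divided by the kilobases of merged exon). Lengths merged all GENCODE exons of a gene, from 3553 bases for Itgb5 to 18599 bases for Itga1. The study made its counts with RefSeq, so the order of genes at similar levels may depend on the lengths used. Itgb1 led in every type, at 380.0 ± 10.6 RPKM in HSC-like (SD, n = 2), 373 ± 59.4 RPKM in VSMC-like (n = 6) and 160.0 ± 25.9 RPKM in FB-like portions (n = 6). Below it, HSC-like portions held Itga1 (46.9 ± 0.93 RPKM), Itga8 (41.3 ± 5.7), Itga9 (39.7 ± 1.8), Itgb3 (38.5 ± 3.7) and Itgb5 (32.2 ± 0.14). The levels of Itga8, Itga9 and Itgb3 in HSC-like portions did not differ beyond their spread. FB-like portions had Itgb5 next (73.1 ± 18.7 RPKM), followed by Itga8 (32.3 ± 15.5), Itga5 (17.5 ± 10.5) and Itga11 (16.9 ± 7.4), whose spreads overlapped. Among the 10, VSMC-like portions had Itga8 (49.9 ± 12.4 RPKM) and Itgb5 (35.7 ± 9.1) next, followed by Itga5 (18.2 ± 12.7) and Itga1 (16.7 ± 2.6). Itga7, from outside the 10, was not ranked. Over the VSMC-like clusters, with wells of all conditions, Itga7 ran from 17.0 to 86.1 RPKM and Itga8 from 13.5 to 113 RPKM. Itgb1 made up 72.8% of the summed RPKM of the 10 subunits in VSMC-like, 63.9% in HSC-like and 50.4% in FB-like portions. Itgb8 was the lowest or next to lowest subunit in each type.

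Of the 16 other integrin genes, 14 stayed below 20 CPM in every type and library of 10X. Some of these had reads in uninjured VSMC-like portions of Smart-seq2 (n = 6). Itga3 was at 67.8 ± 17.2 RPM (SD), Itga10 at 65.9 ± 20.1 RPM and Itga4 at 35.2 ± 18.3 RPM there. Itga7, a laminin receptor of muscle, was at 68.6 CPM in uninjured VSMC-like cells, with 1.74 CPM for FB-like and 0.560 CPM for HSC-like cells. In Smart-seq2 it was at 434 ± 102 RPM in VSMC-like portions (n = 6) and lower in FB-like wells (log2 difference -6.34, edgeR adjusted p = 9.32e-04). Itga2b, the platelet partner of Itgb3, was at 48.4 CPM in uninjured HSC-like cells, with 12.4 CPM for FB-like and 6.62 CPM for VSMC-like cells. Its 2 HSC-like portions in Smart-seq2 held 102 and 103 RPM, against 1.79 ± 1.18 RPM in FB-like portions (adjusted p = 0.00121). Of the platelet genes, Pf4 was at 104 CPM in uninjured HSC-like cells, Ppbp had no UMI in any HSC-like library, and Gp9 had 0, 11 and 1 UMIs and Gp1bb 5, 22 and 9 UMIs in the uninjured, 72 h and 6-week libraries.

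The genes that connect integrins to the cell interior and to the matrix differed between types as well. Of 24 adaptor genes tested between FB-like and VSMC-like wells, 2 were higher and 13 lower in FB-like wells, where 9.63% of all genes were higher and 8.77% lower. The 4 with the smallest p were the actin cross-linker Flna (log2 difference -3.04), the paxillin relative Tgfb1i1 (-1.83), Lims1 (-2.62) and vinculin, Vcl (-1.79), with edgeR adjusted p from 1.29e-05 to 1.84e-04. Of 25 ligand genes, 12 were higher and 3 lower in FB-like wells, led by the fibrillar collagens Col3a1 (log2 difference 3.85), Col1a2 (3.33) and Col1a1 (4.03) and by the basement membrane gene Nid1 (3.77). In HSC-like wells, 7 of 25 adaptors were higher and none lower than in FB-like wells, led by Fermt2 (kindlin-2; log2 difference 2.86, edgeR adjusted p = 4.5e-06), against 2.87% and 4.19% of all genes. Against VSMC-like wells 6 adaptors were higher and 6 lower in HSC-like wells, where 6.63% and 6.46% of all genes were. HSC-like wells were higher in 2 and lower in 8 of 27 ligands against FB-like wells, and higher in 9 and lower in 5 of 27 against VSMC-like wells. Col1a1 was lower in HSC-like than in FB-like wells (log2 difference -4.39, adjusted p = 1.15e-04), and Emilin1, an elastic fibre component, was higher in HSC-like wells than in either other type (1.83 and 2.28).

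At 72 h after CCl4, HSC-like cells held less Itgb1, Itgb3, Itga9 and Itga1 and more Itga8 than uninjured ones. The 2 libraries fell into almost separate clusters, with 50 of 14145 HSC-like cells (0.353%) in a cluster made up mostly of the other library, so no fold could be taken within clusters. Itgb1 was at 417 against 729 CPM (fold 0.571, counting interval 0.563 to 0.58), Itgb3 at 51.3 against 88.9 CPM (0.577, 0.553 to 0.602) and Itga9 at 92.4 against 151 CPM (0.611). Itga1 was at 109 against 158 CPM (0.692), and Itga8 at 127 against 93.0 CPM (1.36, 1.32 to 1.41). The collagen receptors Itga1 and Itga11 went opposite ways, since Itga11 was at 4.45 against 0.927 CPM (4.80, 3.50 to 6.74), a level below that used for calls. Itga5 was at 14.2 against 10.9 CPM (1.30), and Itgb8 at 3.99 against 6.60 CPM (0.605). Itgav and Itgb5 differed little, at folds of 0.916 and 0.926, and both ended above 1 (1.07 and 1.08) when libraries were scaled by the median of gene ratios. None of the 8 subunits with at least 10 CPM was 2-fold higher or lower, against 7.06% of 8384 genes higher and 9.55% lower. Itga2b, from outside the 10, was past 2-fold lower, at 12.3 against 48.4 CPM (0.253). The split of all genes itself depends on the scaling, with 592 genes higher and 801 lower in CPM and 804 higher and 479 lower by the median of gene ratios. The median fold was 0.804 over the tested subunits and 0.859 over all genes. Without the clusters led by Clec4g, a C-type lectin gene, the fold of Itgb3 was 0.409, past 2-fold. That setting took out 891 72 h cells, whose cluster had Itgb3 among its 10 leading genes, but only 53 uninjured cells. The 72 h cells were taken by their clustering with the uninjured libraries. The uninjured cells were taken by a separate clustering with the 6-week libraries. In the former, a cluster of 2449 uninjured cells also had Clec4g among its 10 leading genes and was not taken out. In that same clustering the cluster of the 891 72 h cells held 1 uninjured cell. The part of the separate clusterings in the imbalance was not tested. A lower fold thus followed from the choice of cells and is not further evidence of a decrease.

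The same 72 h library held more of the fibrillar collagens and less of the stellate markers. Of 22 ligand genes, 6 were at least 2-fold higher and 2 lower. Col1a1 was at 2150 against 201 CPM (fold 10.7), Tnc, which encodes tenascin-C, at 62.3 against 11.5 CPM (5.40), Col1a2 at 2822 against 590 CPM (4.78) and the thrombospondin gene Thbs1 at 111 against 33.1 CPM (3.34). The 2 lower ligands were vitronectin (Vtn) and Lamb1. Of 22 adaptors, none was 2-fold higher and 1, Lims2, was lower, with a median fold of 0.723. The actin cross-linkers Actn4 and Actn1 went opposite ways, at folds of 0.553 and 1.73, and Fermt2 and Tns1 were at 0.566 and 0.584. The stellate markers summed to 4304 CPM at 72 h against 24588 CPM, the VSMC markers to 1992 against 594 CPM, immediate early genes to 7712 against 13094 CPM, and heat shock genes to 1543 against 4209 CPM. Median UMIs per cell were 11352 against 6718. The part of these differences in the subunit levels was not tested.

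After 6 weeks of CCl4 the HSC-like cells again held less Itgb1 and Itga1 and more Itga8, while Itgb3 was above its uninjured level. Again few cells, 203 of 12300 (1.65%), shared a cluster with a majority from the other library. Itgb1 was at 501 CPM (fold 0.687), Itga1 at 124 CPM (0.787), Itga8 at 124 CPM (1.33) and Itgb3 at 111 CPM (108 to 114; fold 1.25, 1.20 to 1.30). For Itgb3 the order of the HSC-like libraries was 6-week, uninjured and 72 h, with intervals apart. Without the Clec4g-led clusters the 6-week fold of Itgb3 was 0.979, but this took out 1232 6-week and only 53 uninjured cells. Itgav (0.864), Itgb5 (0.978) and Itga9 (0.938) were slightly lower in CPM and at 1.01, 1.14 and 1.09 by the median of gene ratios. Itga5 stood at 1.00, and Itga11 at 1.88 CPM (2.03). No subunit of 8 tested passed 2-fold, against 2.95% of 8141 genes higher and 1.62% lower, and the median fold was 0.958 against 0.858 over all genes. Itga2b, from outside the 10, was again past 2-fold lower, at 22.6 against 48.4 CPM (0.468). Among 22 ligands 3 were higher: Tnc at 51.2 CPM (fold 4.44), Col1a1 at 645 CPM (3.21) and Thbs1 at 90.2 CPM (2.72). None of 22 adaptors passed, and Tln2 was lowest among the named ones, at 123 against 188 CPM (0.653). Stellate markers summed to 12078 CPM in this library and FB markers to 538 CPM, against 30.5 CPM in uninjured and 285 CPM in 72 h HSC-like cells. Their part in the subunit levels was not tested.

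In FB-like cells 6 weeks of CCl4 went with more Itgb5 and Itgb1. Itgb5 was at 359.8 against 246 CPM (fold 1.46, 1.41 to 1.52), Itgb1 at 209 against 161 CPM (1.29) and Itga11 at 38.3 against 29.1 CPM (1.32). Itgb3 was at 8.94 against 5.23 CPM (1.71), Itga1 at 6.39 against 4.48 CPM (1.43), Itga5 at 22.8 against 19.2 CPM (1.19) and Itgb8 at 9.23 against 7.27 CPM (1.27). Itgav (0.946), Itga8 (0.896) and Itga9 (1.08) stayed nearest to their uninjured levels. None of 7 tested subunits passed 2-fold, against 1.48% of 8419 genes higher and 0.487% lower, with a median fold of 1.19 against 0.994. The 4 FB-like clusters held different shares of the 2 libraries, and folds within them were added after the data were seen. Itgb5 was higher after injury in all 4 (folds of 1.43 to 1.92), as were Itgb1 (1.28 to 1.5) and Itga11 (1.38 to 1.78). In the cluster led by Pi16 and Mfap5, with 1415 uninjured and 338 injured cells, Itgb3 was at 32.1 against 10.1 CPM (fold 3.19, 2.27 to 4.47), past 2-fold. Itgb3 was also higher after injury in the other 3 clusters, where it reached at most 6.2 CPM. The folds there were 2.12 (1.05 to 4.46), 1.32 (0.701 to 2.66) and 5.36 (1.42 to 29.9, from 3 uninjured UMIs). No adaptor of 21 and no ligand of 22 passed over all FB-like cells. The filamin gene Flna was at 137 against 83.0 CPM (1.64), the tensin gene Tns3 at 63.6 against 37.8 CPM (1.68), Emilin1 at 174 against 102 CPM (1.71), and Postn, a matricellular gene, at 89.2 against 149 CPM (0.597). In injured FB-like cells VSMC markers summed to 1399 against 537 CPM and FB markers to 9481 against 8740 CPM. Itga7 was at 6.10 against 1.74 CPM. VSMC-like cells made up 53.2% of the injured and 29.0% of the uninjured library. The part of these differences in the subunit levels was not tested.

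VSMC-like cells had the only 2 of the 10 subunits that passed 2-fold after 6 weeks of CCl4. Itgb3 was at 11.5 CPM (9.78 to 13.4; 162 UMIs) against 2.79 CPM (16 UMIs), a fold of 4.12 (2.46 to 7.38). Itga5 was at 13.3 CPM (187 UMIs) against 5.92 CPM (34 UMIs), a fold of 2.24 (1.55 to 3.33). With every cell thinned to 2000 UMIs Itga5 was at 9.75 against 6.62 CPM and was not called. Of all 8212 genes, 2.47% were 2-fold higher and 0.451% lower, and the median fold was 1.32 over the 8 tested subunits against 1.03. Both injured levels remained low. The injured VSMC-like level of Itgb3 overlapped that of injured FB-like cells, and Itgb3 in uninjured HSC-like cells was at 88.9 CPM. Itgb5 was at 170.1 against 99.1 CPM (1.72, 1.57 to 1.88), Itgb1 at 543 against 378 CPM (1.44, 1.37 to 1.51), and Itga8 at 75.6 against 107 CPM (0.708, 0.640 to 0.783). Itga7, from outside the 10, was at 151 against 68.6 CPM (2.21, 1.98 to 2.46). Itga9 (1.20), Itga1 (1.10), Itgav (0.960), Itga11 (0.902) and Itgb8 (0.814) were nearest to their uninjured levels. No adaptor of 20 and no ligand of 24 passed, with medians of 1.07 and 0.946.

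The VSMC-like clusters were mixed differently in the 2 libraries, so the folds were taken within clusters as well, an alternative added after the data were seen. Only clusters with at least 100 cells in each library were used. The cluster led by Vtn and Higd1b, with 60 uninjured and 72 injured cells, was therefore left out. The cluster led by the contractile genes Cnn1, Pln and Acta2 had 1002 uninjured and 1192 injured cells. Itgb3 was at 13.5 against 3.08 CPM there (fold 4.37, 2.24 to 9.50), and Itga5 had a fold of 1.81 (1.08 to 3.18). The cluster led by Nrarp and Higd1b had 479 and 1578 cells, an Itgb3 fold of 6.84 (1.82 to 57.6) from 2 uninjured UMIs, and an Itga5 fold of 2.19 (1.01 to 5.62). In the small cluster led by Tnnt2 and Actg2 the folds were 3.57 (1.22 to 14.2) for Itgb3 and 4.53 (2.05 to 11.8) for Itga5. Itga7 was higher in all 3, at folds of 2.03, 2.02 and 2.23. The fold of Itga8 was 0.843, 0.703 and 1.11 in the 3 clusters.

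**Figure D3:**
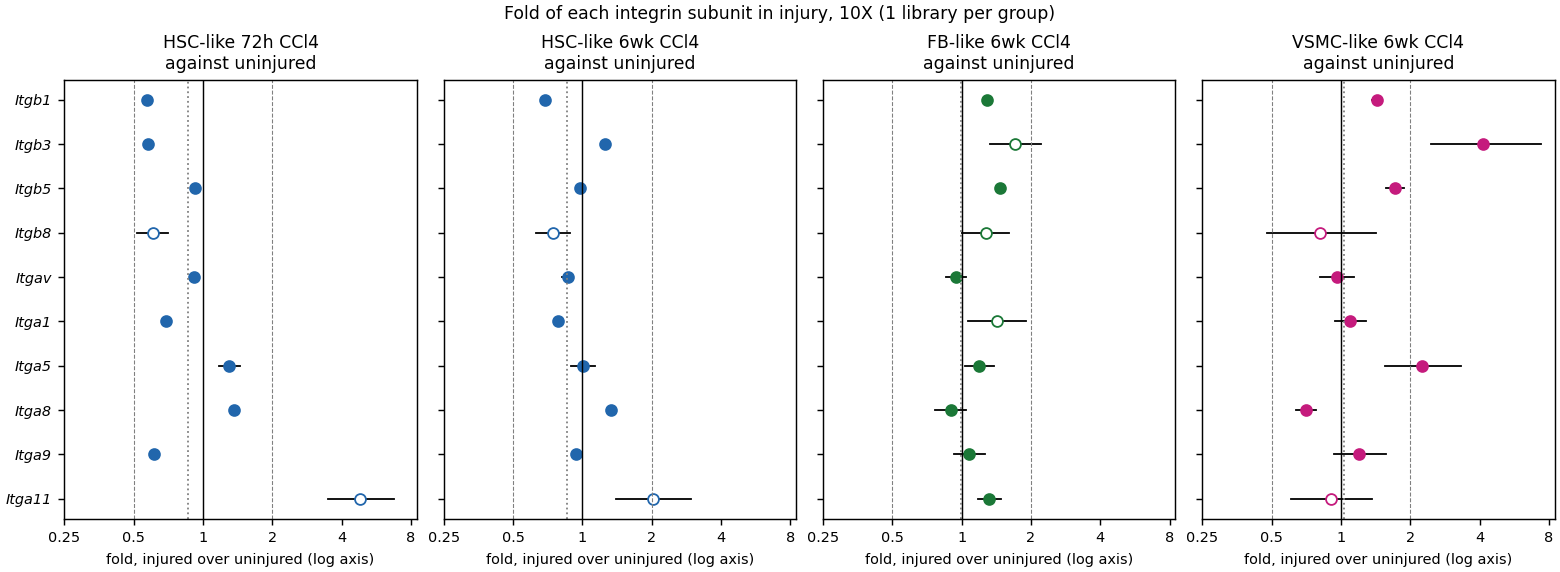
Fold of each subunit in injured over uninjured cells of one type in 10X (log axis), with exact 95% counting intervals. Dashed lines mark 2-fold, the dotted line is the median of all genes, and open points had under 10 CPM. Itgb3 and Itga5 in VSMC-like cells lie past 2-fold, and Itga11 at 72 h lies past it at under 10 CPM.

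Smart-seq2 tested injury in FB-like and VSMC-like wells over portions, 6 uninjured against 5 BDL and 4 CCl4 portions, without HSC-like wells from injured mice. Wells led by Saa3, Hp and Lcn2 were given no type and entered none of these comparisons. They made up 137 of 482 kept CCl4 wells, 22 of 656 BDL wells and 2 of 927 uninjured wells. The CCl4 comparisons thus left out many injured wells, more than the 118 FB-like ones. No subunit passed in any of the 4 comparisons. In FB-like wells after BDL, 0.165% of 13338 genes were higher and 0.09% lower, and in VSMC-like wells 0.199% and 0.122% of 13080 genes. After CCl4 the count over all genes was 0 in both types (0% in each direction) in edgeR, with 512 and 610 genes at an unadjusted p under 0.05, while DESeq2 called 19 higher and 23 lower in FB-like and 21 higher and 36 lower in VSMC-like wells. The absence of a called subunit does not show that levels were equal.

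The subunits nearest to the threshold were Itga1 in FB-like and Itgb1 in VSMC-like wells after BDL. Itga1 was at 73.2, 47.1, 176, 239 and 66.2 RPM in the 5 BDL portions of FB-like wells, against 24.4 to 68.2 RPM in uninjured ones. The groups overlapped, and both BDL mice of plate 2 lay far above the others. Most of their FB-like wells (54 of 61 and 9 of 9) were in the cluster led by Fmod, where Itga1 was at 114 RPM. The second BDL mouse of plate 1 (47.1 RPM) had 11 of 12 wells there. The first had 69 of 90 in the cluster led by Aox3, where Itga1 was at 21.1 RPM. The part of this mix was not tested. The log2 difference of Itga1 after BDL was 1.37 ± 0.38 (edgeR adjusted p = 0.166), and DESeq2 gave 1.42 (adjusted p = 0.0323). With plate in the fit the difference of Itga1 was 1.12 (adjusted p = 0.669). Itgb1 was at 2055, 1920, 1842, 2306 and 2307 RPM in BDL portions of VSMC-like wells, against 1294 to 1851 RPM. Only the lowest BDL portion of Itgb1 reached into the uninjured range, and the log2 difference was 0.51 ± 0.13 (edgeR adjusted p = 0.131), against 0.49 in DESeq2 (adjusted p = 0.0259). With plate in the fit the Itgb1 difference was 0.59 (adjusted p = 0.464). Itga8 in FB-like wells was at 70.6, 52.4, 114, 252 and 44.0 RPM after BDL against 95.1 to 387 RPM (log2 difference -1.15, adjusted p = 0.519). A difference in the response between the types was not called for any subunit, with the smallest p for Itga1 after BDL (interaction 1.32 on the log2 scale, unadjusted p = 0.00334, adjusted p = 0.625).

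The 10X differences of VSMC-like and FB-like cells at 6 weeks could be set beside these portions. Itgb3 in VSMC-like wells was at 29.0, 24.6, 6.22 and 14.9 RPM after CCl4, against 0.825 to 23.1 RPM uninjured. Those groups overlapped, at means of 18.7 ± 10.2 (SD, n = 4) and 10.3 ± 9.9 RPM (n = 6). Itgb5 in FB-like wells was at 406, 435, 196 and 212 RPM after CCl4 against 189 to 371 RPM, so the portions of plate 3 lay above and those of plate 5 within the uninjured range. Itga5 in VSMC-like wells was at 76.3 ± 45.7 RPM after CCl4 against 89.7 ± 62.6 RPM (log2 difference -0.20, adjusted p = 1.0), the opposite sign to 10X, and Itga8 at 376 ± 185 against 367 ± 91.0 RPM. Itga5 was at 672 RPM in the 74 VSMC-like wells led by Npnt and Tnnt2, against at most 95.8 RPM in the other VSMC-like clusters. Those wells made up 12 of 45, 0 of 90, 4 of 50 and 2 of 23 VSMC-like wells after CCl4. In uninjured portions they ranged from 1 of 73 to 12 of 64, and their part was not tested. Itga7 in VSMC-like wells was at 470.0 ± 67.0 RPM after CCl4 and 542 ± 51.8 RPM after BDL, against 434 ± 102 RPM. Itgb5 in VSMC-like wells had a lower mean after CCl4 (104 ± 22.5 against 127 ± 32.2 RPM), unlike in 10X. So did Itga11 in FB-like wells (63.8 ± 16.1 against 86.5 ± 38.0 RPM). Itgb1 had a higher mean, as in 10X, in FB-like (749 ± 126 against 653 ± 106 RPM) and VSMC-like wells (1815 ± 182 against 1523 ± 243 RPM). The portions of these groups overlapped. Of the ligands, 3 of 27 passed in FB-like wells after BDL, all higher: Spp1 (osteopontin; adjusted p = 0.00169, with too few uninjured reads for a stable fold), the collagen IV gene Col4a2 (log2 difference 1.82, adjusted p = 0.00471) and fibronectin, Fn1 (1.99, adjusted p = 0.0349). With plate in the fit no gene was called in FB-like wells after BDL, these 3 included. No ligand passed in the other 3 comparisons and no adaptor in any of the 4.

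Stellate cells differ along the lobule, so HSC-like cells were split by the study's portal-vein and central-vein signatures. The split used 51 portal and 29 central genes and left out Itgb3, which the study had placed in its portal list from its uninjured stellate cells. The study also named Itgb3 among the genes that kept this profile in healthy and 6-week cells combined. The result for Itgb3 is therefore not independent evidence. Separately, staining in the study placed stellate cells high in Integrin β3 in the peri-portal region of healthy liver. In fibrotic liver it reported them mostly away from the fibrotic region. Cells of the portal signature made up 2970 of 6850 uninjured (43.4%), 1728 72-h (23.7%) and 1682 6-week cells (30.9%), and 260 to 487 cells per library lay near the dividing value. That value was set in each library separately, so portal-signature cells of different libraries are not one class and only ratios within a library are read.

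Itgb3 was at 117 CPM in portal-signature and 67.1 CPM in central-signature uninjured cells (ratio 1.74, 1.63 to 1.85). The ratio was 5.42 at 72 h, at 145 against 26.7 CPM, and 3.01 after 6 weeks, at 209 against 69.3 CPM. Itgb3 was past 2-fold in the 2 injured libraries and was the only subunit called in the split, where a call also needs 10 CPM. Over all genes the calls were 0.906% higher and 0.472% lower in uninjured, 1.99% and 1.98% in 72 h, and 1.82% and 1.83% in 6-week cells. Itga9 (ratios 1.46, 1.80 and 1.68) and Itgb1 (1.26, 1.62 and 1.78) also leaned to the portal side in all 3 libraries. At 72 h Itgb1 was at 599 CPM in portal-signature against 369 CPM in central-signature cells. Itga8 leaned to the central side, at 80.5 against 103 CPM uninjured (0.783), 74.1 against 141 CPM at 72 h (0.527) and 74.6 against 145 CPM after 6 weeks (0.515). Itgb5 did too, with ratios of 0.843, 0.705 and 0.683. Itgav and Itga1 were on the portal side by 1.14 to 1.33. Itgb8, under 10 CPM throughout, leaned to the central side, at 4.02 against 8.61 CPM uninjured (0.467), 2.72 against 4.32 CPM at 72 h (0.631) and 2.37 against 6.01 CPM after 6 weeks (0.394).

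The 2 HSC-like Smart-seq2 portions, both uninjured, were split in the same way, 1 mouse each, but with 50 portal and 28 central genes. Itgb3 was at 365 against 165 RPM in one portion (ratio 2.22) and 309 against 161 RPM in the other (1.91). Ratios were 1.43 and 1.63 for Itga9, 1.51 and 1.26 for Itgb1, 1.29 and 1.20 for Itgav, and 1.11 and 1.20 for Itga1. Itga8 was on the central side in both mice (0.646 and 0.749), as was Itgb5, by less (0.978 and 0.935), and Itgb8 at low levels (0.386 and 0.134), while Itga5 pointed in opposite directions (2.38 and 0.702). No test was run over these 2 mice, and the wells of a mouse are not replicates.

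**Figure D4:**
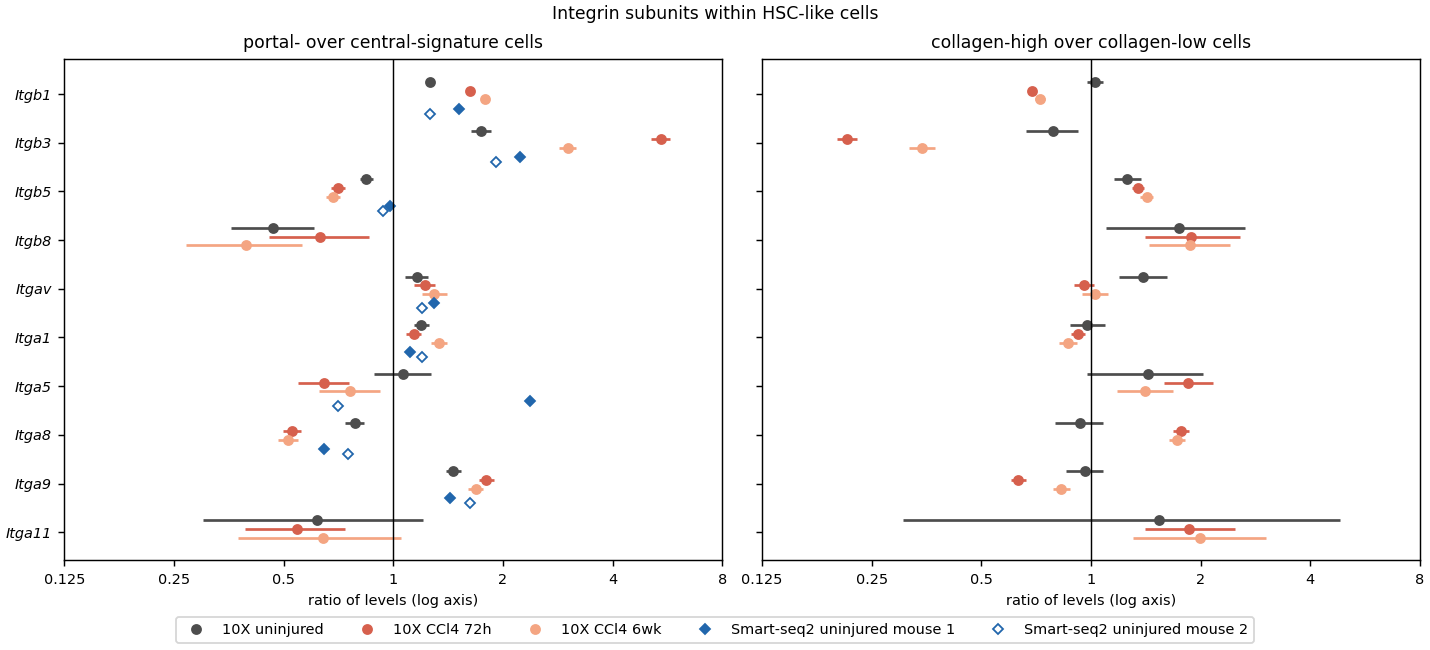
Ratio of each subunit in HSC-like cells (log axes), portal over central signature on the left and collagen-high over collagen-low on the right, for the 10X libraries with exact 95% counting intervals. Diamonds are the uninjured Smart-seq2 portions, where Itgb8 and Itga11 are left out. On the left Itgb3, Itga9 and Itgb1 lie above 1 throughout and Itga8 and Itgb5 below it.

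HSC-like cells were also split by their mean level of Col1a1, Col1a2 and Col3a1. Collagen-high cells made up 338 of 6850 uninjured (4.93%), 5076 of 7295 72-h (69.6%) and 1428 of 5450 6-week cells (26.2%). Itgb3 was the only subunit called, and it was lower in collagen-high cells after injury. It was at 26.2 against 123 CPM at 72 h (ratio 0.214) and 46.5 against 135 CPM after 6 weeks (0.344), against 0.786 in uninjured cells. Over all genes, 1.41% were 2-fold higher and 0.254% lower in uninjured collagen-high cells, 2.33% and 1.96% at 72 h, and 1.58% and 0.659% after 6 weeks. Itga8 was on the collagen-high side after injury, at 143 against 80.8 CPM at 72 h (1.77) and 178 against 103 CPM after 6 weeks (1.72), but not in uninjured cells, at 86.8 against 93.3 CPM (0.930, 0.799 to 1.08). Itgb5 (1.26, 1.35 and 1.42), Itga5 (1.43, 1.85 and 1.41), Itgb8 (1.75, 1.88 and 1.87) and Itga11 (1.54, 1.86 and 2.00) were above 1 in every library. The uninjured intervals of Itga5 (0.973 to 2.04) and Itga11 (0.305 to 4.84) reached below 1, and the latter rests on 3 UMIs in collagen-high cells. Itgb1 stood at 1.03 in uninjured cells and at 0.688 and 0.724 after injury. Median UMIs in collagen-high and collagen-low cells were 12352 and 9986 at 72 h, and their part was not tested.

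Collagen-high cells were unevenly spread over the signatures, at 20.7% of portal-signature and 84.8% of central-signature cells at 72 h and 8.80% and 34.0% after 6 weeks. Taking both splits together, Itgb3 at 72 h was at 167 CPM in portal collagen-low, 76.0 CPM in portal collagen-high, 54.5 CPM in central collagen-low and 22.6 CPM in central collagen-high cells. The same order held after 6 weeks, at 215, 133, 86.6 and 37.6 CPM. Itga8 ran the other way, at 61.9, 112, 110 and 145 CPM at 72 h and 71.1, 112, 123 and 185 CPM after 6 weeks. In the 2 injured libraries each split of Itgb3 and Itga8 thus also showed within both sides of the other. In uninjured cells the collagen split of Itga8 did not, at 76.6 CPM in collagen-high against 80.7 CPM in collagen-low portal cells and 96.3 against 103 CPM in central cells. Itgb1 at 72 h was at 629, 505, 407 and 363 CPM in that order, and Itgb5 was at 140.4, 174, 184 and 215 CPM. Itga9 followed the portal side more than collagen after 6 weeks, at 196, 228, 121 and 113 CPM.

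**Figure D5:**
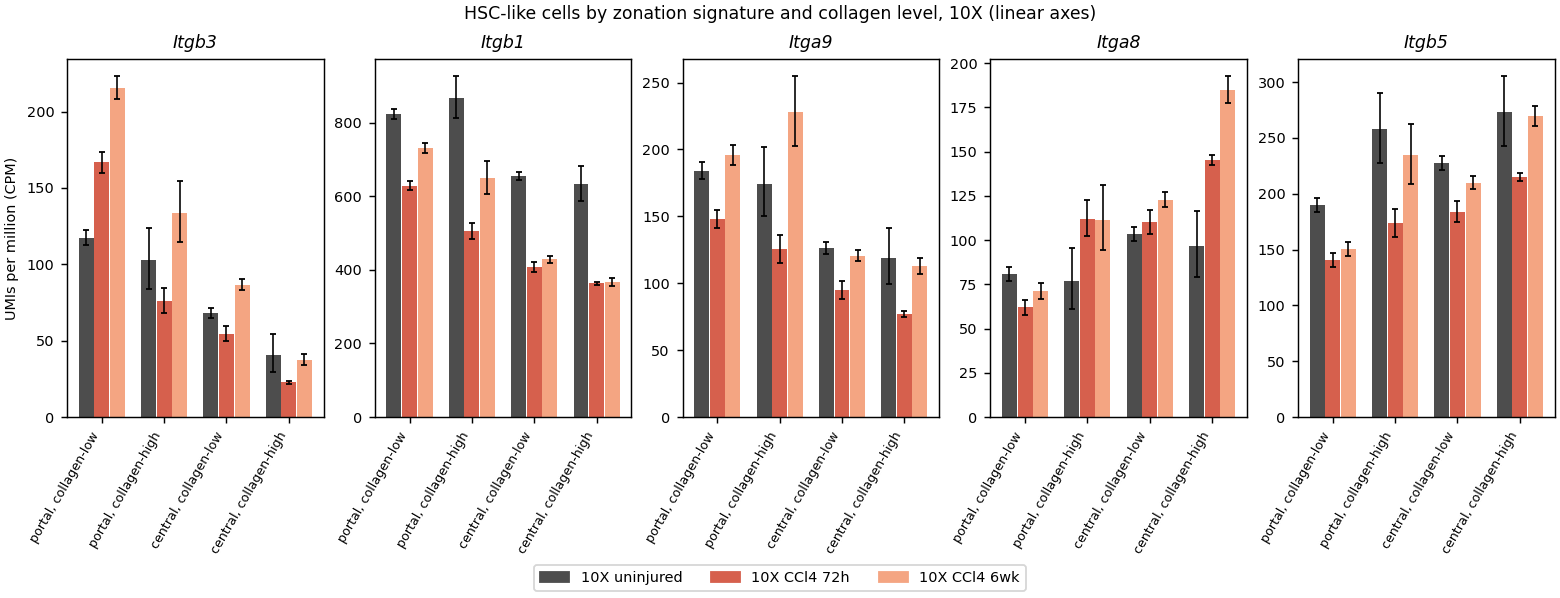
Level (CPM, linear axes) of 5 subunits in the 4 sets of HSC-like cells made by crossing the portal or central signature with collagen-high or collagen-low, in each 10X library, with exact Poisson 95% intervals. At 72 h and after 6 weeks Itgb3 descends from portal collagen-low to central collagen-high cells, while Itga8 is highest in central collagen-high cells.

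Clusters within each type showed where single subunits were highest. Itgb3 reached 182 CPM in a cluster of 1232 6-week HSC-like cells led by Mest and Clec4g, and 177 and 174 CPM in 2 clusters of 303 and 891 cells at 72 h, both with Mest among their leading genes. Itga8 reached 178 CPM in a cluster of 1147 6-week HSC-like cells led by Alcam and Fam180a. The highest level of Itga11 was 74.1 CPM, in a cluster of injured FB-like cells led by Pi16, and that of Itgb5 was 505 CPM, in injured FB-like cells led by Gas6 and Sfrp1. Itga5 was highest, at 35.2 CPM, in the injured VSMC-like cluster led by Tnnt2.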

How the data were processed

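Members and gene lists were chosen with earlier results of these data known. The deposited 10X values were raw UMI counts of each gene in each cell, which the authors had made with Cell Ranger 2.1.0 on mm10. For Smart-seq2, the deposited read counts per gene and well were made after STAR alignment. There, 771 gene rows shared a symbol with another row, and the level of a gene was read from its first row. Cells with at least 300 genes and at most 30% mitochondrial counts were kept (30999 of 31018), scaled to 10000 UMIs and clustered on 2000 variable genes without integrins, adaptors or ligands (10 components, 30 neighbours, Leiden 0.8; leidenalg 0.10.2). Clec4g was dropped from the endothelial list after HSC-like clusters were seen to hold it, and the lists named every 10X cluster but left 161 Smart-seq2 wells, led by Saa3, Hp and Lcn2, unnamed. Doublets were called by simulated pairs and kept, and leaving them out was an alternative. In 10X, UMIs were summed per type and library, and a gene at 2-fold with 10 CPM in the higher group was called. No 10X comparison has a test.

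In Smart-seq2, 2065 of 2292 wells were kept within 3 median absolute deviations. The wells of a type in each of the 17 portions were summed where there were at least 5. Each sum of 1 type in 1 portion held 3271476 to 73426588 reads. edgeR 4.0.16 (quasi-likelihood, TMM, filterByExpr, Benjamini-Hochberg over all genes) was the test, checked on simulated data. DESeq2 1.42.0 was the alternative. FB-like and VSMC-like wells of a portion came from the same mouse, which is the block between these types. The fit with HSC-like wells had no block. The study counts fewer uninjured livers than uninjured portions, so portions on different plates may share a mouse. SE is the log2 difference over the root of F. Named genes were the 10 members, other integrins with 20 CPM, and per list up to 4 genes by fold (with 50 CPM) or by p.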

Additional observations from a re-analysis of the deposited data

Results flagged for a closer look

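Of 60 groups of 4 to 6 Smart-seq2 portions looked at, 5 held a portion far from the others by Dixon's ratio, where chance gives about 1 in 20. Itgb5 was at 701 RPM in FB-like wells of 1 BDL mouse on plate 2, against 204 to 298 RPM in the other BDL portions. Of its 61 FB-like wells, 54 were in the cluster led by Fmod, where Itgb5 was at 515 RPM. All 9 FB-like wells of the other BDL mouse on plate 2 were there too. Itgb3 was at 12.1 RPM in FB-like wells of the BDL mouse on plate 4, against 0 to 1.72 RPM, and at 4.58 RPM in FB-like wells of the uninjured mouse on that plate, against 0 to 0.0454 RPM. Itga9 was at 71.7 RPM in VSMC-like wells of the same BDL mouse, against 21.9 to 35.0 RPM. Itgb8 was at 4.0 RPM in VSMC-like wells of 1 CCl4 mouse on plate 3, against 0 to 0.539 RPM.

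Wells outside the comparisons held subunits above the highest uninjured FB-like portion. Itgb3 was at 28.4 RPM in the 161 unnamed wells and at 12.7 RPM in 27 mesothelial-like wells, against 4.58 RPM. Of the unnamed wells, 137 came from CCl4 mice, 22 from BDL mice and 2 from uninjured mice. Itgav was at 147 RPM in the mesothelial-like wells, against 118 RPM.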

How the results depend on the processing

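No result changed its direction past a threshold, and the causes of the shifts given here were not tested. In 10X, the 72 h HSC-like comparison had 0 subunits past 2-fold, but 3 (Itgb1, Itgb3 and Itga9) past 1.5-fold and 1 (Itgb3) without the Clec4g-led clusters. That setting took out 891 72 h but only 53 uninjured cells, picked from separate clusterings. The VSMC-like comparison had 2, and 1 (Itgb3) with every cell thinned to 2000 UMIs, 1 (Itgb3) within cluster 0 (Cnn1-led) and 1 (Itga5) within cluster 1 (Nrarp-led), where Itgb3 stayed under 10 CPM. The FB-like comparison had 0, and 1 (Itgb3) within cluster 5 (Pi16-led). The portal split had 1 (Itgb3), but 4 between the upper and lower 25% of the score (with Itga8, Itgb1 and Itgb8) and 2 after thinning (with Itga8). The collagen split had 1 (Itgb3), but 3 between the upper and lower 25% (with Itga5 and Itga8) and 2 after thinning (with Itgb8). In Smart-seq2, classing wells by their highest marker level left 3 of 5 subunits called between HSC-like and FB-like wells and 0 of 2 between HSC-like and VSMC-like wells. DESeq2 called 1 subunit in FB-like wells (Itga1) and 1 in VSMC-like wells (Itgb1) after BDL, against 0 in edgeR.

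Without the portion block, 4 subunits were called between FB-like and VSMC-like wells, against 5 with it. With plate as a replicate block, 0 subunits were called in each of the 4 injury comparisons, and the BDL calls over all genes went from 22 higher and 12 lower to 0 in FB-like and from 26 higher and 16 lower to 1 higher in VSMC-like wells. Leaving out each portion or plate in turn gave 4 to 5 subunits between FB-like and VSMC-like, 4 to 5 between HSC-like and FB-like, 2 to 3 between HSC-like and VSMC-like wells, and 0 in every injury comparison. Of the single-subunit values under the other settings, 713 stayed the same. For 10X this means a fold inside the main counting interval, and for Smart-seq2 an unchanged call. Another 134, all in 10X, lay outside that interval, and changes of a 10X call were not counted here. In Smart-seq2, 4 passed where they had not and 6 no longer passed. Itgb3 in VSMC-like cells rests on 16 uninjured UMIs, and 1 pooled library per group leaves the spread between mice unknown in 10X.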
